A study of Mus musculus with 2 samples.

Results

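Cycling regulatory T cells (Tregs) of the spleen were taken as the cell barcodes with at most 10% of their UMIs from mitochondrially encoded genes and at least 2 UMIs in all over 8 proliferation genes, Mki67, Top2a, Birc5, Rrm2, Tyms, Ccna2, Cdk1 and 2810417H13Rik. A UMI (unique molecular identifier) stands for 1 captured transcript. The rule found 76 cells among 4252 kept cells, 38 of 1619 in the PPARg-low library and 38 of 2633 in the PPARg-negative library. Because both libraries held fewer than 50 such cells, values are given for the 76 cells pooled and then by library. The cells were chosen by their UMIs of these 8 genes, so the levels of those genes below are a description. Each set of cycling cells was set beside other kept cells of its own library, with 0 or 1 UMI of the 8 genes, matched on total UMIs (5 other cells for each cycling cell, 190 per library), because a cell with more UMIs passes the rule more easily.

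Both libraries came from male B6 Pparg-Tdt.Foxp3-Gfp mice of 8 weeks, a strain with a reporter for the nuclear receptor gene Pparg and another for Foxp3, the transcription factor that defines Tregs. Spleens of 2 or 3 mice were pooled, CD4 Tregs were sorted, and single cells were captured for droplet-based 3′ RNA sequencing. One library is labelled as PPARg-low Tregs and the other as PPARg-negative Tregs; the deposited names of the PPARg-low library carry the tag pos, and the label's word is used here. Each group is 1 library with no separate mice, so groups could not be tested against each other, and the 95% intervals below describe counting error alone.

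A dividing cell first copies its DNA in S phase, which needs licensing factors of the MCM family, polymerases, clamps and new nucleotides, and then condenses and separates its chromosomes in mitosis under cyclin-dependent kinases, the kinetochore and the spindle. E2F factors drive the S phase genes and a later programme of CCAAT and cell cycle homology elements accompanies the mitotic genes. In the spleen most Tregs are small resting cells, and effector Tregs, which carry receptors such as Klrg1 and Icos, divide more often than resting ones.

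The libraries differed in depth and in RNA content. The PPARg-low library held 3227201 UMIs in 1992 barcodes and the PPARg-negative library 6114403 in 2902. Kept cells had medians of 1517 UMIs in the PPARg-low and 2171 in the PPARg-negative library, after 373 PPARg-low and 269 PPARg-negative barcodes over the mitochondrial limit were left out. Scrublet, a doublet caller, marked 11 (0.679%) PPARg-low and 8 (0.304%) PPARg-negative kept cells, 1 of them a cycling cell. The PPARg-negative share is under 0.5%, so the caller may have missed doublets. The libraries shared 5 barcode sequences, 1 of them that of a cycling cell. Cycling cells were deep, with a median of 3807.5 UMIs in the PPARg-low library, against 3515 in matched and 1484 in all other kept cells. In the PPARg-negative library the medians were 3169.5 UMIs in cycling cells, 3172 in matched and 2163 in all other kept cells. Matching did not reach the deepest cells: 7 PPARg-low and 5 PPARg-negative cycling cells had more UMIs than any other kept cell. Cells with under 20% of UMIs from ribosomal protein genes, called ribosome-poor, were 22 of 38 cycling (57.9%) against 38 of 190 matched cells (20%) in the PPARg-low library, and 14 of 38 (36.8%) against 15 of 190 (7.89%) in the PPARg-negative library. Among all other kept cells, most of them shallower, 59.2% of PPARg-low and 23.5% of PPARg-negative cells were ribosome-poor. Results that follow this share are therefore also given after matching on UMIs and ribosomal share together.

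The 76 cells were of 2 kinds by the genes that chose them. In the PPARg-low library 14 cells had 2 UMIs of the 8 genes, 6 had 3 or 4, none had 5 or 6 and 18 had 7 or more, up to 77. In the PPARg-negative library 23 cells had 2 UMIs, 4 had 3 or 4, none had 5 or 6 and 11 had 7 or more, up to 61. Just outside the rule, 211 PPARg-low and 166 PPARg-negative cells had 1 UMI. The 29 cells with 7 or more UMIs held 708 of the 815 UMIs of the 8 genes. Top2a, which untangles DNA strands, was found in 28 of the 29 cells, Mki67, a chromosome coat protein used as a proliferation marker, in 25, 2810417H13Rik, which binds the replication clamp, in 24, and Birc5, a subunit of the chromosomal passenger complex, in 23. Among the 47 cells with 2 to 4 UMIs, the gene found most often was Tyms, which makes thymidylate for DNA, in 28 cells, against Top2a in 14, Mki67 in 9 and Birc5 in 6. Tyms was also the rule gene found most often in matched other cells, in 29 of 380.

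**Figure D1:**
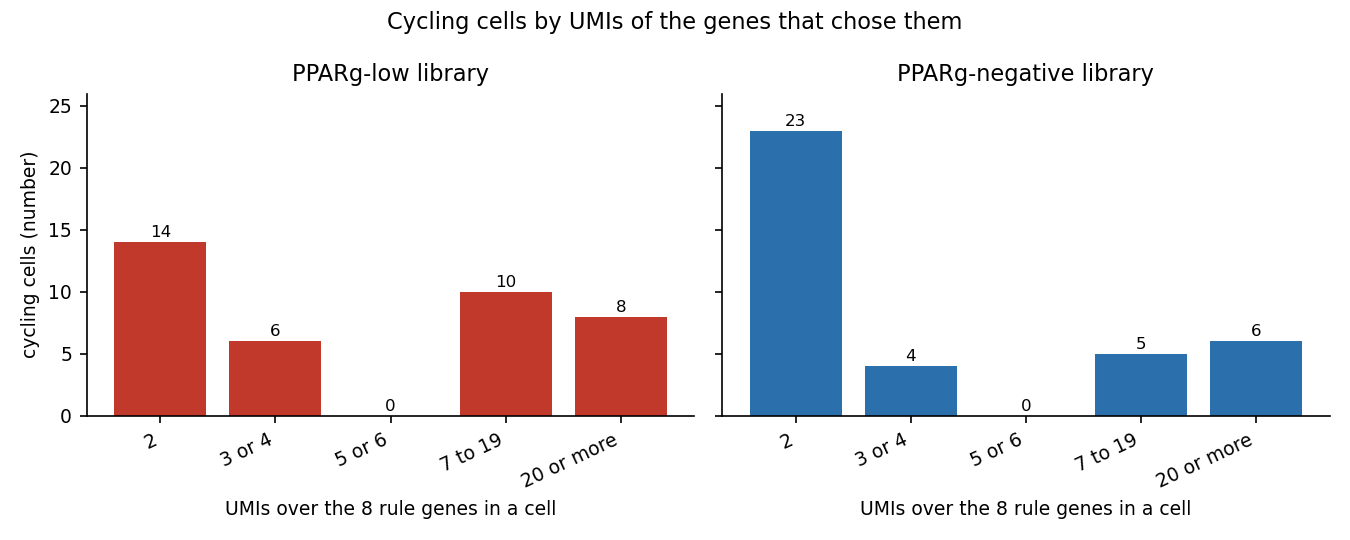
Number of cycling cells (vertical axis) by the UMIs they had over the 8 genes of the rule (horizontal axis), for the PPARg-low library on the left and the PPARg-negative library on the right. No cell had 5 or 6 UMIs; 18 PPARg-low and 11 PPARg-negative cells had 7 or more.

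Genes outside the rule, but of the same cell cycle programme, mostly separated the same 2 kinds. Genes of the mitotic and kinetochore lists gave over 20 UMIs per 10000 in 29 of the 29 cells with 7 or more rule UMIs, in 6 of the 47 cells with 2 to 4, and in 15 of 380 matched other cells. Replication genes and mitotic and kinetochore genes together each passed that level in 25 of the 29 cells, in 2 of the 47 and in 3 of the 380. The replication genes had 6891 CPM (counts per 1000000 UMIs of the cells) in PPARg-low cells with 7 or more rule UMIs and 1579 CPM in those with 2 to 4. The same genes had 4222 CPM in PPARg-negative cells with 7 or more and 1858 CPM in those with 2 to 4, against 1120.2 CPM in the matched other cells of the PPARg-low and 867 CPM in those of the PPARg-negative library. The 47 cells thus held replication transcripts at levels nearer to those of other cells than to those of the 29. Values for the pooled 76 cells mix both, and the limit of 7 was chosen after the gap was seen. Set against their own matched cells, the 29 cells had 540 genes higher (16.2% of those measured) and 250 lower (7.50%), and the 47 cells 147 higher (4.08%) and 66 lower (1.83%), by the rule for calls given below. No sample or label separates the 2 kinds.

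Cycling cells made up 2.35% (1.67 to 3.21%, exact Clopper-Pearson) of kept cells in the PPARg-low library and 1.44% (1.02 to 1.98%) in the PPARg-negative library, a ratio of 1.63 (1.01 to 2.62). The PPARg-low cells were shallower, so every cell was also thinned to 750 UMIs, which left out 238 PPARg-low and 239 PPARg-negative cells. At that depth 21 of 1381 PPARg-low cells (1.52%) and 13 of 2394 PPARg-negative cells (0.543%) met the rule, a ratio of 2.80 (1.34 to 6.09). The 7-UMI cells were 1.11% of kept PPARg-low and 0.418% of kept PPARg-negative cells, a ratio of 2.66 (1.19 to 6.24). With a ribosomal share of 20% or more, 2.42% of PPARg-low and 1.19% of PPARg-negative cells met the rule, a ratio of 2.03 (1.01 to 3.98). Among ribosome-poor cells it was 2.30% of PPARg-low and 2.25% of PPARg-negative cells, a ratio of 1.02 (0.50 to 2.16), and the difference between the 2 ratios was not tested. Leaving out the cells marked by Scrublet gave a ratio of 1.59 (0.983 to 2.57), whose interval includes 1.

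DNA replication genes were higher in cycling cells of both libraries. A gene was called higher or lower at a ratio of 1.5 or more either way with the interval on that side of 1, among genes with 30 or more UMIs over both sets of cells. Over all 5361 genes measured in the pooled cells, 575 (10.7%) were higher and 177 (3.30%) lower in cycling than in matched cells, and 437 higher and 272 lower once ratios were taken relative to the median gene. Of 48 genes for origins and forks, 30 were measured, of which 26 were higher and 0 lower, with a median log2 ratio of 2.02 beside 0.10 for all genes. The summed ratio was 4.38 (3.97 to 4.84) in the PPARg-low and 3.19 (2.82 to 3.61) in the PPARg-negative library. Mcm5, a subunit of the helicase that opens origins (ENSMUSG00000005410, mm10 chromosome 8, 75109569 to 75128439, plus strand), had 38 UMIs (214 CPM) in PPARg-low cycling cells against 13 (19.8 CPM) in their matched cells, and 28 (167 CPM) in PPARg-negative cycling cells against 13 (19.1 CPM) in theirs. Its pooled ratio was 9.82 (6.15 to 16.1). Fen1, which trims Okazaki fragments, lay at 6.27 (3.86 to 10.3), and the clamp gene Pcna at 5.03 (3.72 to 6.81). Both libraries were on the same side for these 3 genes.

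Other S phase groups followed with smaller ratios. Nucleotide synthesis genes had a summed ratio of 1.76 (1.62 to 1.91), with 11 of 23 measured genes higher. Dut, which keeps uracil out of DNA, had 71 UMIs in PPARg-low cycling cells against 45 in matched cells, and 29 in PPARg-negative cycling cells against 43. The PPARg-negative cycling cells held 167976 UMIs in all and their matched cells 680580, so 29 against 43 was the higher level per UMI in cycling cells. DNA repair genes lay at 2.85 (2.46 to 3.30), with 3 of 5 higher, and DNA methylation and heterochromatin copying genes at 2.01 (1.80 to 2.25), with 8 of 12 higher. Rrm2, a rule gene that makes deoxynucleotides, had 91 UMIs among PPARg-low and 43 among PPARg-negative cycling cells. Genes of the G1 step lay near matched cells in sum, at 1.17 (1.05 to 1.30): of 9 measured, E2f2 was higher, at 5.29, and Myc was lower, at 0.477 (0.221 to 0.924) on 10 UMIs in cycling cells and at 1.02 without the cells over 3 times the median UMIs. Below the minimum of 30 UMIs, and named after their values were seen, Mybl2, a factor that turns on mitotic genes, had 11 UMIs in PPARg-low and 5 UMIs in PPARg-negative cycling cells, and the repressor E2f8 had 7 UMIs in PPARg-low and 6 UMIs in PPARg-negative cycling cells. Both genes had 0 in all 380 matched cells. With that 0 set to a floor of 3 counts over the matched cells, Mybl2 was 20.6-fold and E2f8 16.8-fold higher.

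Kinetochore and mitotic genes had the largest summed ratios of the lists run on the pooled cells. The cyclins, kinases and degradation factors of mitosis summed to 4.77 (4.18 to 5.43) in the PPARg-low and 7.22 (6.21 to 8.41) in the PPARg-negative library, and 12 of 13 measured genes were higher in the pooled cells. Kinetochore and centromere genes summed to 7.23 (6.25 to 8.38), with 6 of 8 higher, and spindle and cytokinesis genes to 3.96 (3.72 to 4.21), with 12 of 13 higher. Cks1b, a small subunit of cyclin-dependent kinases, had 34 UMIs in PPARg-low cycling cells against 6 in matched cells, and 41 in PPARg-negative cycling cells against 8. Cks2, its relative, lay at 2.79 (1.77 to 4.36) in the PPARg-low and 10.9 (6.01 to 20.7) in the PPARg-negative library. Cenpa, the histone that marks centromeres, lay at 3.28 (1.97 to 5.44) in the PPARg-low and 12.2 (6.51 to 24.1) in the PPARg-negative library; among matched cells it was 2.66 times higher in the PPARg-low library. Stmn1, which takes microtubules apart (ENSMUSG00000028832, mm10 chromosome 4, 134468320 to 134473843, plus strand), had 146 UMIs (821 CPM) in PPARg-low cycling cells against 14 (21.3 CPM) in their matched cells, and 109 (649 CPM) in PPARg-negative cycling cells against 15 (22 CPM) in theirs. Stmn1 was found in 15 of 18 PPARg-low cells with 7 or more rule UMIs against 11 of 190 matched cells, and in 10 of 11 such PPARg-negative cells against 11 of 190. These 190 were matched to all 38 cycling cells of their library and were shallower than the cells with 7 or more rule UMIs. Median UMIs were 3515 against 4532.5 in the PPARg-low and 3172 against 3342 in the PPARg-negative library. Racgap1, needed for cytokinesis, lay at 9.86 (5.78 to 17.5), and the tubulin gene Tuba1b at 4.94 (4.24 to 5.76).

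Chromatin proteins completed the list of leading genes. Hmgb2, which bends DNA and is abundant in dividing cells (ENSMUSG00000054717, mm10 chromosome 8, 57511907 to 57515999, plus strand), had 391 UMIs (2197 CPM) in PPARg-low cycling cells against 229 (349 CPM) in their matched cells, and 355 (2113 CPM) in PPARg-negative cycling cells against 171 (251 CPM) in theirs. In the cells with 7 or more rule UMIs its pooled ratio was 11.8, and in those with 2 to 4 it was 2.49. The list of condensation and HMG proteins summed to 2.63 (2.49 to 2.77), with 14 of 17 higher, among them Lmnb1, a nuclear lamina protein, at 7.51 (5.34 to 10.7). Hist1h2ap, a replication-dependent histone H2A gene (ENSMUSG00000094777, mm10 chromosome 13, 21833026 to 21833507, minus strand), had 120 UMIs (674 CPM) in PPARg-low cycling cells against 7 (10.7 CPM) in their matched cells, and 111 (661 CPM) in PPARg-negative cycling cells against 8 (11.8 CPM) in theirs. Its UMIs lay in 14 of 18 PPARg-low and 8 of 11 PPARg-negative cells with 7 or more rule UMIs, and in 4 of the 47 others. Hist1h2ap belongs to a family of near-identical copies, so its counts may include reads of relatives. Histones as a list were at 1.57 (1.5 to 1.64), with 4 of 11 higher, and at 1.10 without the cells over 3 times the median UMIs of their library. H2afx, the histone that marks DNA breaks, lay at 5.74 (4.16 to 7.97), and Prdx4, a peroxidase of the endoplasmic reticulum, at 5.46 (3.76 to 7.97).

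The stretches upstream of 4 of these genes are shown because members of the S phase and mitotic lists moved together; the shares of promoters with each short motif differed by list. Each run is the 250 bases before the RefSeq start (GRCm38.p6, the assembly that mm10 names), 5′ to 3′ on the strand of the gene, and none overlaps an exon in GENCODE M21. Capitals mark the CCAAT box, the cell cycle homology motif TTTGAA and the E2F motifs TTTCCCGC, TTTCGCGC, TTTGCCGC and TTTGGCGC on either strand; overlapping matches run together. Mcm5 lies at chr8:75109259-75109508, plus strand, Mcm6 at chr1:128359706-128359955, minus strand, Cks2 at chr13:51644982-51645231, plus strand and Hmgb2 at chr8:57511593-57511842, plus strand.
Mcm5: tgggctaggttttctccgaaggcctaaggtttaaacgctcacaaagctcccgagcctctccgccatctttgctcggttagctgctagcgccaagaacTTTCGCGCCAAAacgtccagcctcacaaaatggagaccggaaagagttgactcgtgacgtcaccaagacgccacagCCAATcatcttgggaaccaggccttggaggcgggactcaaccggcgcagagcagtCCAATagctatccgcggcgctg
Mcm6: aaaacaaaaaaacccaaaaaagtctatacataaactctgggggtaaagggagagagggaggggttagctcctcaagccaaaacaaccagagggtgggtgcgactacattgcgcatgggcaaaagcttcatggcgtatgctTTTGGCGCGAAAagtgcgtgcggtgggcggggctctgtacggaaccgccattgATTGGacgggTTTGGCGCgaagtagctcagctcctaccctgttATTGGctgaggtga
Cks2: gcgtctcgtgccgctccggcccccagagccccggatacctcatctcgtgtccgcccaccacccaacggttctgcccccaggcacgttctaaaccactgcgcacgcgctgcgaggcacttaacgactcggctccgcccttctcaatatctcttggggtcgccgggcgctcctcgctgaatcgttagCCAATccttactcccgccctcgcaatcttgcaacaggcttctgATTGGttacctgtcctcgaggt
Hmgb2: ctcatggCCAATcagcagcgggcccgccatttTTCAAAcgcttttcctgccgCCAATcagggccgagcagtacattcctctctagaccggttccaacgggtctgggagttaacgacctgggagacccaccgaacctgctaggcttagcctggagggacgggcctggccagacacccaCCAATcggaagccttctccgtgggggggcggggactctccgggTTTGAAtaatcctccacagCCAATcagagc
The Mcm5 window held 2 CCAAT and 2 overlapping E2F matches, and that of Mcm6, another helicase subunit with a pooled ratio of 2.40 (1.75 to 3.28), 2 CCAAT and 3 E2F matches, a pair of which overlap. The Cks2 window held 2 CCAAT matches, and that of Hmgb2 4 CCAAT and 2 TTTGAA matches. Among all 27025 promoters, 34.5% held CCAAT, 16.3% TTTGAA and 1.91% an E2F motif. An E2F motif was found in 9 of 38 replication promoters that matched the table (23.7%), 1 of 30 mitotic ones (3.33%), 2 of 27 kinetochore ones (7.41%) and 3 of 33 spindle ones (9.09%). CCAAT was found in 23 of 30 mitotic promoters (76.7%), 24 of 33 spindle promoters (72.7%), 16 of 27 kinetochore promoters (59.3%) and 22 of 38 replication promoters (57.9%). The CCAAT box stood together with the TTTGAA motif in 8 mitotic (26.7%), 9 spindle (27.3%), 3 kinetochore (11.1%) and 4 of 38 replication promoters, against 5.73% of all. A match is a run of letters, not a bound site.

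The balance of replication and mitotic transcripts was not alike in the 2 libraries. Among cells with 7 or more rule UMIs, 10 of 18 PPARg-low and 2 of 11 PPARg-negative cells had more replication than mitotic and kinetochore UMIs. Their median was 71.1 replication UMIs per 10000 in the PPARg-low and 47.9 in the PPARg-negative library. For mitotic and kinetochore genes the medians were 58.7 in the PPARg-low and 97.5 in the PPARg-negative library. The cells of both libraries overlapped on both measures. In sum, replication genes were 1.63 (1.42 to 1.88) times and mitotic genes 0.681 (0.595 to 0.779) times as high in PPARg-low as in PPARg-negative cells of this kind. Over all 76 cells the ratios were 1.77 (1.58 to 1.99) for replication and 1.04 (0.919 to 1.18) for mitotic genes. The replication ratio was 0.850 in cells with 2 to 4 rule UMIs. The mitotic ratio was 1.43 among ribosome-rich cells, 0.683 among ribosome-poor cells and 1.49 without the cells over 3 times the median UMIs, so its direction differed between subsets. These ratios rest on 18 PPARg-low and 11 PPARg-negative cells, and with 1 library per group they cannot be told apart from differences between the pools.

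**Figure D2:**
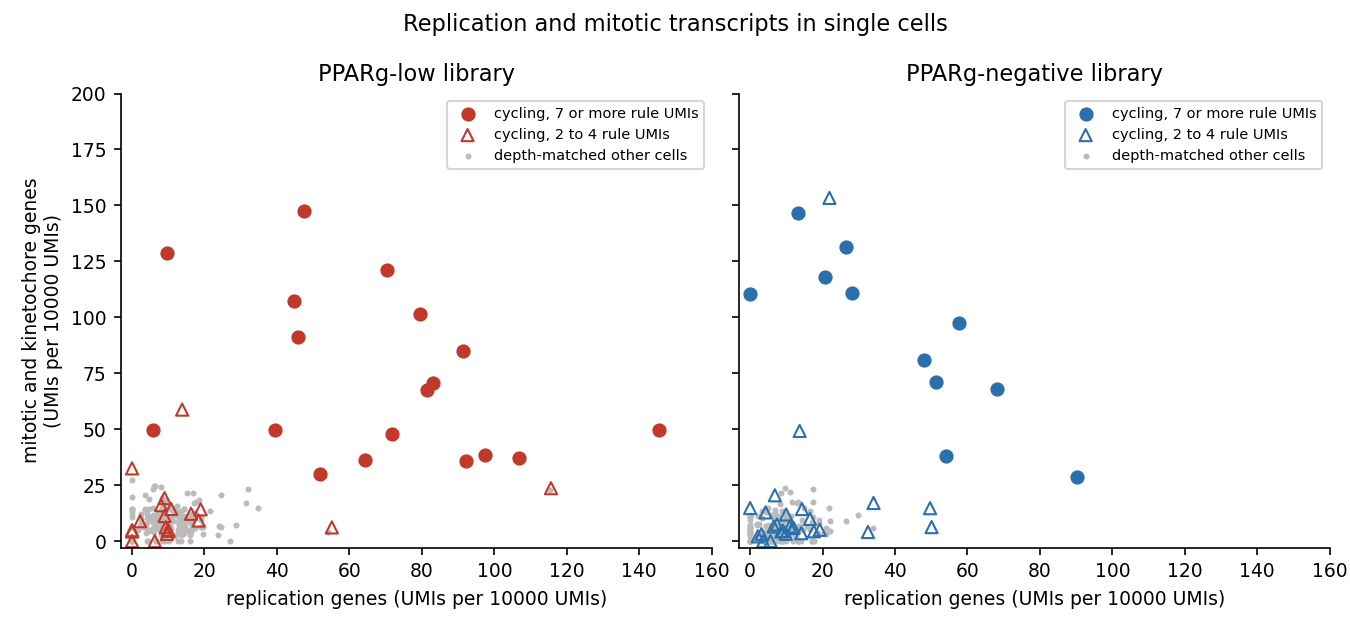
UMIs per 10000 in single cells for replication genes (horizontal axis) and for mitotic and kinetochore genes (vertical axis), in the PPARg-low library on the left and the PPARg-negative library on the right. Filled circles are cycling cells with 7 or more rule UMIs, open triangles those with 2 to 4 and grey dots depth-matched other cells; the filled circles all lie above 20 on the vertical axis, and most triangles lie among the grey dots.

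Btg1 and 4 other genes of the CDK inhibitor and quiescence list were lower in cycling cells, and 2 were higher. The antiproliferative factor Btg1 (ENSMUSG00000036478, mm10 chromosome 10, 96617006 to 96622809, plus strand) had 110 UMIs (618 CPM) in PPARg-low cycling cells against 916 (1394 CPM) in their matched cells, and 126 (750.1 CPM) in PPARg-negative cycling cells against 973 (1429.7 CPM) in theirs. Its pooled ratio was 0.483 (0.420 to 0.553), at 0.237 in cells with 7 or more rule UMIs and 0.760 in those with 2 to 4. The list of CDK inhibitors and quiescence genes, which holds Btg1, summed to 0.759 (0.709 to 0.812), and of 18 measured genes 5 were lower, among them Pdcd4, a brake on translation, at 0.593 (0.442 to 0.784) and the glucocorticoid-induced Tsc22d3 at 0.582 (0.405 to 0.818). The list held 2 higher genes, Cdkn2c, an inhibitor of the G1 kinases, at 4.06, and Ccng2 at 1.93. Cdkn1b, the inhibitor p27, lay at 0.802 (0.446 to 1.36), with no difference detectable. Among genes outside the list, Bcl2, which blocks apoptosis, lay at 0.554 (0.408 to 0.738), the interleukin 7 receptor gene Il7r at 0.532 (0.369 to 0.749), and Evl, an actin regulator, at 0.449 (0.310 to 0.632). Gimap3 and Gimap5, GTPases of lymphocyte survival, were both lower, Gimap3 at 0.577 (0.481 to 0.689) and Gimap5 at 0.503 (0.350 to 0.703), and so was Hcst, a signalling adaptor, at 0.492 (0.361 to 0.657). Limd2 lay at 0.635 (0.553 to 0.727), Tmem261 at 0.201 (0.0534 to 0.535) and Fau, which encodes a ribosomal fusion protein, at 0.727 (0.683 to 0.773).

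RNA content moved with cycling. Ribosomal protein genes took 220792 CPM in PPARg-low cycling cells against 266935 CPM in their matched cells, and 299567 CPM in PPARg-negative cycling cells against 392370 CPM in theirs. The nuclear RNA Malat1 lay at 0.558 (0.536 to 0.581) in the PPARg-low and 0.802 (0.769 to 0.835) in the PPARg-negative library. In the 11 PPARg-negative cells with 7 or more rule UMIs, 9 were ribosome-poor and the median mitochondrial share was 7.27%, against 2.21% in their matched cells. The 18 PPARg-low cells of this kind had a median of 3.97%, against 2.48%. After matching on ribosomal share as well, the pooled replication ratio was 3.79 (3.51 to 4.10) beside 3.90 (3.61 to 4.21) on UMIs alone, and the mitotic ratio 5.45 (4.94 to 6.02) beside 5.74 (5.21 to 6.34). Kinetochore genes then lay at 7.19 (6.19 to 8.36) and CDK inhibitors and quiescence genes at 0.785 (0.733 to 0.840).

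Metabolic and folding genes differed less. Glycolysis genes summed to 1.35 (1.28 to 1.43), with 5 of 14 higher, among them Pkm, the last kinase of the pathway, at 1.69 (1.47 to 1.93). Chaperones summed to 1.24 (1.20 to 1.28), with 7 of 18 higher, among them the endoplasmic reticulum chaperones Hsp90b1 at 2.33 (1.91 to 2.85) and Hspa5 at 1.98 (1.64 to 2.37). The proteasome lay at 1.16 (1.10 to 1.22), with 8 of 31 higher. Oxidative phosphorylation lay at 1.08 (1.05 to 1.11) and ribosome biogenesis at 1.09 (1.03 to 1.15), each with 1 higher gene. In ribosome biogenesis that was Ran, the GTPase of nuclear transport and the spindle, at 1.97 (1.69 to 2.30). In the cells with 2 to 4 rule UMIs Hsp90b1 lay below 1, at 0.954.

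**Figure D3:**
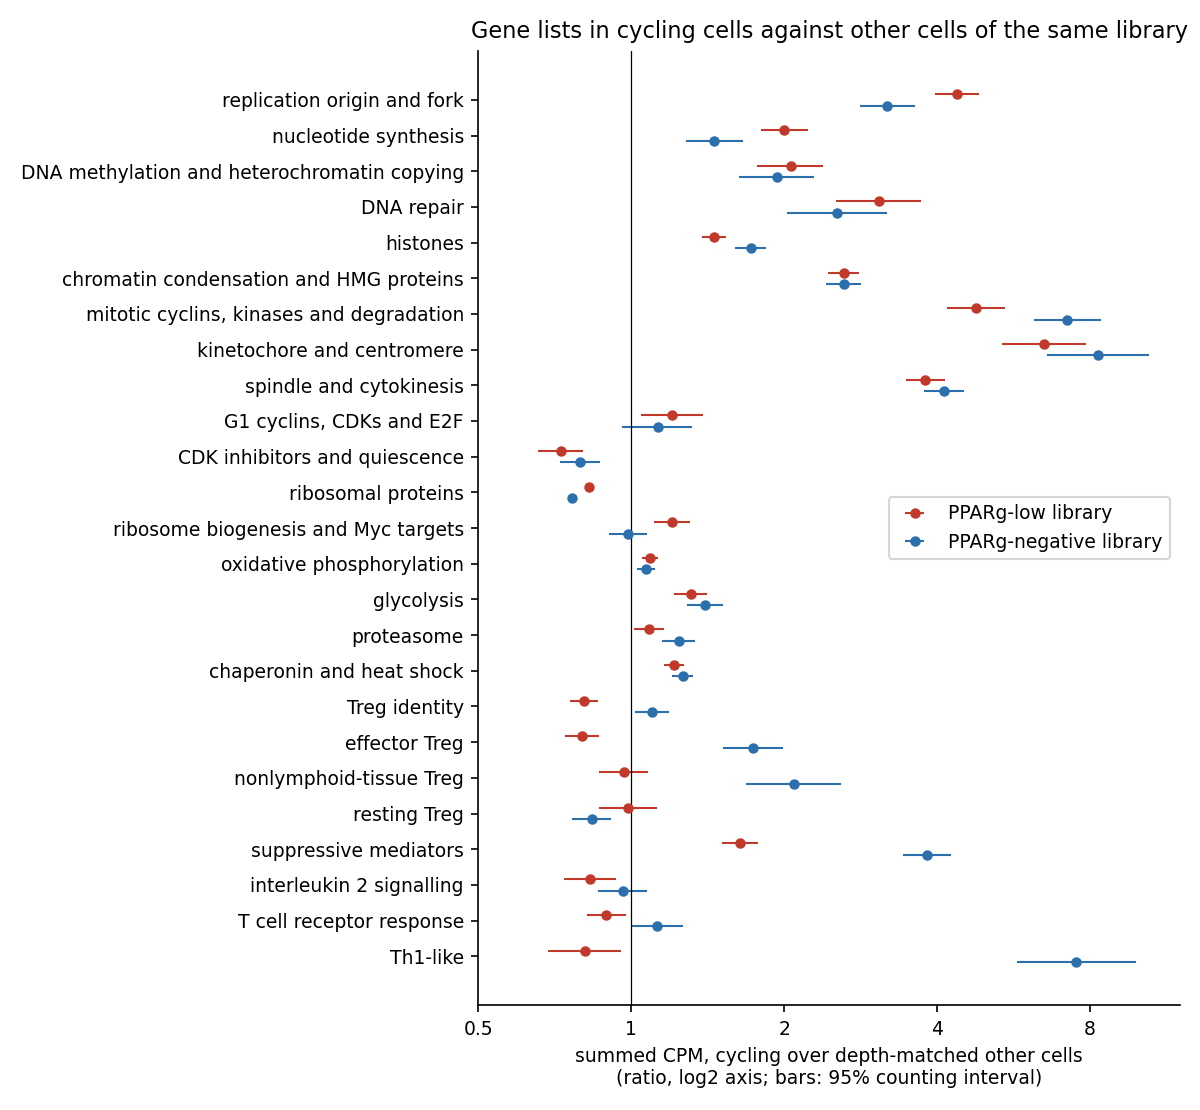
Ratio of summed CPM in cycling over depth-matched other cells (horizontal axis, log2) for each gene list (vertical axis), with 95% counting intervals, in red for the PPARg-low and in blue for the PPARg-negative library. Cell cycle lists lie to the right of 1 in both libraries; the effector and nonlymphoid-tissue Treg lists lie at 0.799 and 0.965 in the PPARg-low library and at 1.74 and 2.09 in the PPARg-negative library.

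Treg state genes set cycling cells apart from matched cells differently in the 2 libraries: effector genes lay below matched cells in the PPARg-low library and above them in the PPARg-negative library. Effector Treg genes, those of activated Tregs, summed to 0.799 (0.739 to 0.862) in the PPARg-low library, where 0 of 14 measured genes were higher and 2 lower. In the PPARg-negative library they summed to 1.74 (1.51 to 1.99), with 5 of 9 higher and 0 lower. All genes measured there had 373 (12.1%) higher and 79 (2.57%) lower calls, and those of the PPARg-low library 348 (9.62%) higher and 162 (4.48%) lower calls; 124 genes were higher in both (35.6% of PPARg-low calls, 33.2% of PPARg-negative calls). Nonlymphoid-tissue Treg genes lay at 0.965 (0.863 to 1.08) in the PPARg-low and 2.09 (1.68 to 2.58) in the PPARg-negative library, and suppressive mediators at 1.64 (1.51 to 1.78) in the PPARg-low and 3.82 (3.42 to 4.25) in the PPARg-negative library. Lgals1 gave 534 of the 833 suppressive mediator UMIs of PPARg-low cycling cells and 854 of the 1880 of their matched cells, and without it the list lay at 1.08 (0.943 to 1.23) in the PPARg-low and 3.17 (2.68 to 3.75) in the PPARg-negative library. Of the 256 UMIs left in PPARg-negative cycling cells, 129 were of Gzmb, against 26 of the 327 left in their matched cells. The 3.17 is therefore not a rise shared evenly over the list. Treg identity genes lay at 0.807 (0.758 to 0.859) in the PPARg-low and 1.10 (1.02 to 1.18) in the PPARg-negative library. Resting Treg genes lay at 0.986 (0.864 to 1.12) in the PPARg-low and 0.835 (0.765 to 0.910) in the PPARg-negative library, where 4 of 13 were lower. Interleukin 2 signalling genes lay at 0.831 (0.738 to 0.934) in the PPARg-low and 0.962 (0.860 to 1.07) in the PPARg-negative library, and T cell receptor response genes at 0.893 (0.816 to 0.976) in the PPARg-low and 1.13 (1.0 to 1.26) in the PPARg-negative library. The difference between the libraries was not tested.

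These PPARg-negative differences depended on the ribosomal share of the cells they were set against. After matching on UMIs and ribosomal share, effector Treg genes lay at 0.908 (0.799 to 1.03), nonlymphoid-tissue genes at 0.843 (0.694 to 1.02), suppressive mediators at 2.05 (1.86 to 2.25) and Treg identity genes at 0.978 (0.906 to 1.06) in the PPARg-negative library. The suppressive mediator sum there includes Lgals1, at 2.35 (2.06 to 2.67), and Gzmb, at 3.49 (2.72 to 4.47). In the PPARg-low library the same matching gave 0.591 (0.548 to 0.637) for effector genes, 0.710 (0.637 to 0.791) for nonlymphoid-tissue genes, 1.20 (1.10 to 1.29) for suppressive mediators and 0.638 (0.599 to 0.678) for identity genes. The 1.20 includes Lgals1, at 1.82 (1.64 to 2.03), and a sum without it is not given for this matching. Il10 lay at 0.393 (0.190 to 0.734), Lag3 at 0.470 (0.283 to 0.745) and Gzmb at 0.513 (0.340 to 0.751). Fgl2, at 1.36 (0.819 to 2.19), and Entpd1, at 1.47 (0.245 to 6.43), lay above 1 with intervals that span it. Cycling PPARg-negative cells thus held more effector transcripts than depth-matched cells of their library and no detectable excess over cells of like ribosomal share. This matching was added after the data were seen, and the part of ribosome content in the result was not tested further.

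The receptor genes Klrg1 and Icos exceeded depth-matched cells in the PPARg-negative library, with no detectable excess after matching on ribosomal share. In the PPARg-low library their intervals on depth matching spanned 1 (Klrg1 at 1.16, 0.940 to 1.41), unlike that of the effector list. Klrg1, an inhibitory receptor of effector Tregs (ENSMUSG00000030114, mm10 chromosome 6, 122270596 to 122282882, minus strand), had 128 UMIs (719 CPM) in PPARg-low cycling cells against 409 (623 CPM) in their matched cells, and 37 (220.3 CPM) in PPARg-negative cycling cells against 13 (19.1 CPM) in theirs. It was found in 27 of 38 PPARg-low cycling cells against 104 of 190 matched cells, and in 9 of 38 PPARg-negative cycling cells (23.7%) against 9 of 190 (4.74%). Thinned to 750 UMIs, Klrg1 was found in 14 of 37 (37.8%, 22.5 to 55.2%) PPARg-low cycling cells against 548 of 1344 (40.8%, 38.1 to 43.5%) other kept cells. The thinned shares were 8 of 37 (21.6%, 9.83 to 38.2%) in PPARg-negative cycling cells against 78 of 2357 (3.31%, 2.62 to 4.11%) in other kept cells. The B cell gene Cd79a, which Tregs should lack, was found in 0 of 37 thinned cycling cells of either library (exact upper bound 9.49%) and in 0.0744% of other PPARg-low and 0.0849% of other PPARg-negative cells. Matched on ribosomal share too, the Klrg1 ratio was 0.848 in the PPARg-low and 1.17 (0.786 to 1.71) in the PPARg-negative library. Icos, a costimulatory receptor, lay at 1.14 (0.836 to 1.52) in the PPARg-low and 3.02 (2.05 to 4.43) in the PPARg-negative library, and at 0.871 in the PPARg-low and 0.982 in the PPARg-negative library after the second matching.

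Lgals1 was higher in cycling cells of both libraries under both matchings. Lgals1, which encodes the immunoregulatory lectin galectin 1 (ENSMUSG00000068220, mm10 chromosome 15, 78926725 to 78930465, plus strand), had 534 UMIs (3001 CPM) in PPARg-low cycling cells against 854 (1299.8 CPM) in their matched cells, and 391 (2328 CPM) in PPARg-negative cycling cells against 360 (529 CPM) in theirs. After matching on ribosomal share its ratio was 1.82 in the PPARg-low and 2.35 (2.06 to 2.67) in the PPARg-negative library. The checkpoint receptor gene Ctla4 lay at 1.39 (1.11 to 1.73) in the PPARg-low and 2.29 (1.57 to 3.32) in the PPARg-negative library, and after matching on ribosomal share at 0.864 (0.697 to 1.06) in the PPARg-low and 1.45 (1.01 to 2.05) in the PPARg-negative library. The chemokine receptor genes Ccr2 and Cxcr3 lay at 2.30 (1.30 to 3.97) for Ccr2 and 2.18 (1.37 to 3.40) for Cxcr3 in the PPARg-low library, and after matching on ribosomal share at 1.08 (0.645 to 1.75) for Ccr2 and 1.98 (1.25 to 3.10) for Cxcr3. In the PPARg-negative library Ccr2 lay at 4.93 (2.74 to 8.96) and Cxcr3 at 4.05 (2.07 to 7.93), and after matching on ribosomal share Ccr2 lay at 1.03 and Cxcr3 at 1.08. The pooled Ctla4 ratio was 1.61 (1.33 to 1.94), 1.01 (0.838 to 1.20) after matching on ribosomal share, and 0.811 among ribosome-rich cells. On depth matching it was 1.16 (0.881 to 1.505) in cells with 7 or more rule UMIs and 2.18 (1.66 to 2.85) in those with 2 to 4. Gzmb, the cytotoxic protease granzyme B (ENSMUSG00000015437, mm10 chromosome 14, 56258838 to 56262260, minus strand), had 31 UMIs (174 CPM) in PPARg-low cycling cells against 115 (175 CPM) in their matched cells, and 129 (768 CPM) in PPARg-negative cycling cells against 26 (38.2 CPM) in theirs. The 129 PPARg-negative UMIs came from 8 of 38 cells, with 44 in 1 cell, which had under 7 rule UMIs, and 85 in the others. The Gzmb ratio in this library was 20.1 (13.1 to 31.9), and 3.49 (2.72 to 4.47) after matching on ribosomal share. The Th1-like list, which holds Gzmb, summed to 0.811 (0.686 to 0.955) in the PPARg-low and 7.50 (5.74 to 9.85) in the PPARg-negative library. Its measured genes were Cxcr3, Ccl5, Nkg7 and Gzmb in the PPARg-low and Cxcr3 and Gzmb in the PPARg-negative library. Ccl5 gave 97 of the PPARg-low cycling UMIs, most of them in a single cell.

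**Figure D4:**
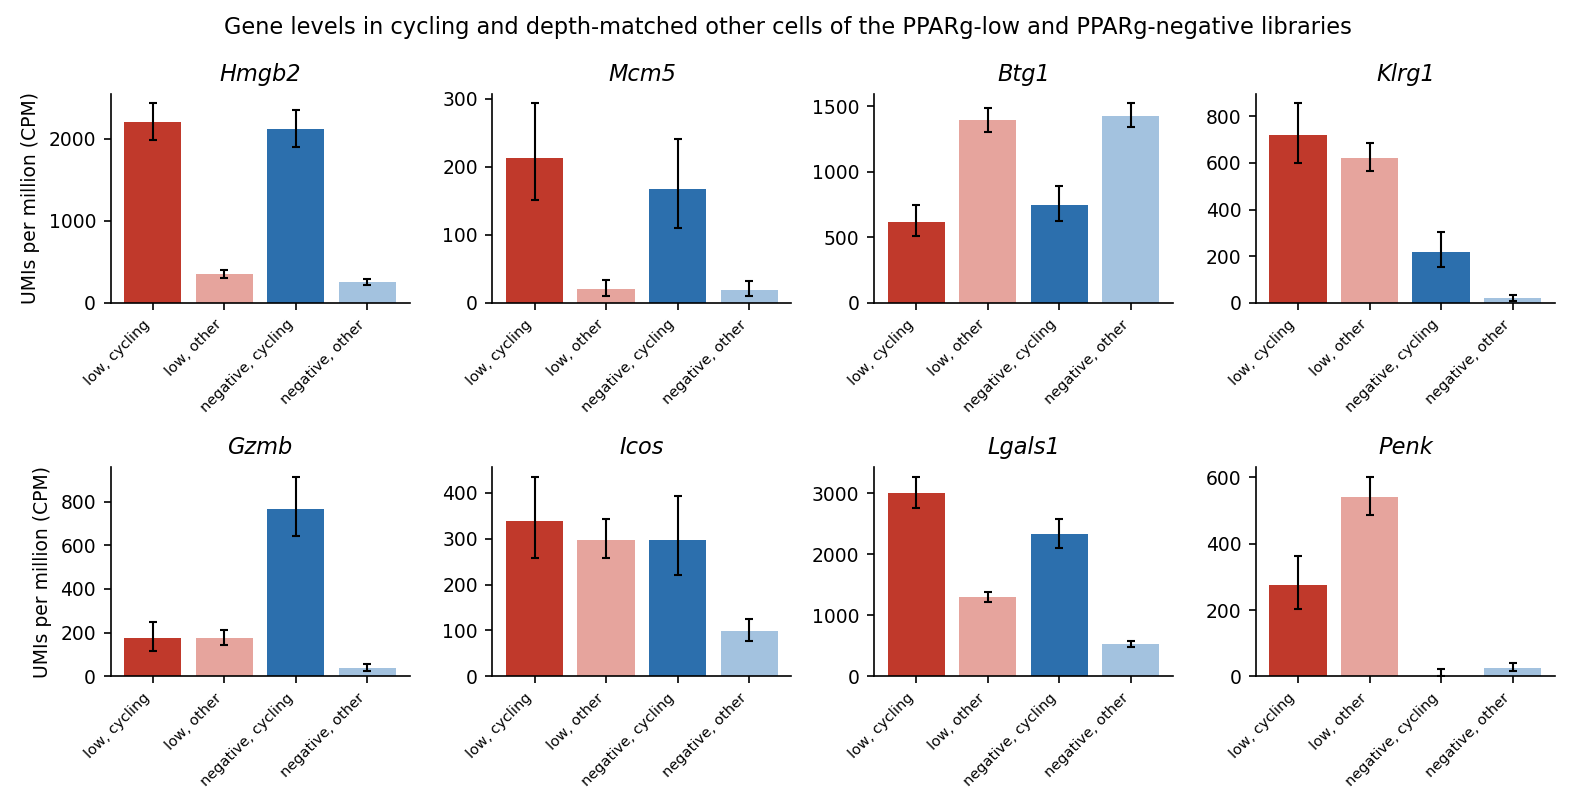
Level of 8 genes in CPM (vertical axes, from 0) in cycling and depth-matched other cells of the PPARg-low library (dark and light red) and the PPARg-negative library (dark and light blue), with 95% Poisson intervals of the summed UMIs. Hmgb2, Mcm5 and Lgals1 are higher and Btg1 lower in cycling cells of both libraries, while Klrg1, Gzmb and Icos are higher in cycling cells of the PPARg-negative library and Penk has 0 UMIs there.

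Set against each other, PPARg-low and PPARg-negative cycling cells differed by Treg state, as other cells of the libraries did. Of 1677 genes measured in cycling cells, 163 (9.72%) were higher and 44 (2.62%) lower as PPARg-low over PPARg-negative (116 higher and 98 lower relative to the median gene), and of 4581 measured in matched other cells 908 (19.8%) were higher and 151 (3.30%) lower; with fewer UMIs in cycling cells, fewer genes could be called there. The median log2 ratio of all genes was 0.13 in cycling and 0.28 in matched cells. Effector genes were 2.50 (2.19 to 2.86) times as high in PPARg-low cycling cells, with 6 of 10 higher, against 5.44 (5.02 to 5.90) in matched cells. Nonlymphoid-tissue genes were 2.85 (2.34 to 3.50) times as high in cycling and 6.17 (5.41 to 7.07) in matched cells. Resting genes lay at 0.442 (0.383 to 0.508) in cycling and 0.374 (0.349 to 0.401) in matched cells. With 7 or more rule UMIs the ratio was 1.30 (1.06 to 1.59) for effector, 2.12 (1.60 to 2.84) for nonlymphoid-tissue and 0.627 (0.507 to 0.776) for resting genes, and 41 (4.41%) of 929 measured genes were higher and 46 (4.95%) lower. With 2 to 4 rule UMIs the effector ratio was 4.66 (3.90 to 5.60). Ribosomal protein genes lay at 0.737 (0.727 to 0.747) in all cycling and 1.0 (0.982 to 1.03) in 7-UMI cells. The ratios given above after matching on ribosomal share imply smaller gaps in other cells than 5.44 for effector and 6.17 for nonlymphoid-tissue genes. Those gaps are not given here, and the part of ribosome content in these state differences was not tested.

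Genes higher in PPARg-low cycling cells included receptors and secreted factors. Penk, the precursor of enkephalin peptides (ENSMUSG00000045573, mm10 chromosome 4, 4133531 to 4138819, minus strand), had 49 UMIs, from 9 PPARg-low cycling cells, against 0 among PPARg-negative ones. With that 0 set to a floor of 3 counts over the PPARg-negative cells, Penk was 15.4-fold higher (interval bound 12.1), beside 20.5 in matched cells. Penk was also lower in PPARg-low cycling than matched cells, at 0.508 (0.369 to 0.687). Ccl5, a chemokine, had 97 UMIs among PPARg-low and 6 among PPARg-negative cycling cells, but 73 of the PPARg-low UMIs lay in 1 cell. The costimulatory receptor gene Tnfrsf9 lay at 5.02 (3.16 to 8.32), the transcription factor gene Gata3 at 4.92 (2.75 to 9.45), the activation marker Cd83 at 10.9 (3.96 to 41.5) and the tetraspanin gene Cd81 at 4.48 (2.75 to 7.67). Ramp1, a coreceptor for the neuropeptide CGRP, lay at 5.93 (2.65 to 15.6), and Wls, which exports Wnt proteins, at 8.50 (2.61 to 43.8). Lower in PPARg-low cycling cells were Gzmb at 0.227 (0.148 to 0.338), which in matched cells lay on the other side at 4.58 (1.54 after matching on ribosomal share too), Evl at 0.303 (0.126 to 0.661) and Ddit4, an inhibitor of mTORC1, at 0.290 (0.138 to 0.566). Rgs10 lay at 0.380 (0.234 to 0.603), Ms4a4b at 0.411 (0.320 to 0.526), Arl5c at 0.346 (0.157 to 0.711) and Klf2, which keeps T cells circulating, at 0.508 (0.380 to 0.675). The lymph node homing receptor gene Ccr7 had 0 UMIs among PPARg-low and 21 among PPARg-negative cycling cells. The chromatin organiser Satb1 had 0 in PPARg-low and 14 in PPARg-negative cycling cells. With the 0 set to a floor of 3 counts, Ccr7 was 7.42-fold lower (interval bound 5.52) and Satb1 4.94-fold lower (interval bound 3.51). Of the PPARg-negative UMIs, 19 of Ccr7 and 11 of Satb1 lay in cells with 2 to 4 rule UMIs. Bcl2 lay at 0.189 (0.0811 to 0.391) over all cycling cells, but 44 of its 45 PPARg-negative UMIs were in cells with 2 to 4 rule UMIs. In cells with 7 or more it had 7 UMIs in the PPARg-low library and 1 in the PPARg-negative one, a ratio of 4.06 (0.522 to 183). Among cells with 7 or more rule UMIs the intervals of Cd83, Wls, Evl and Rgs10 spanned 1.

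**Figure D5:**
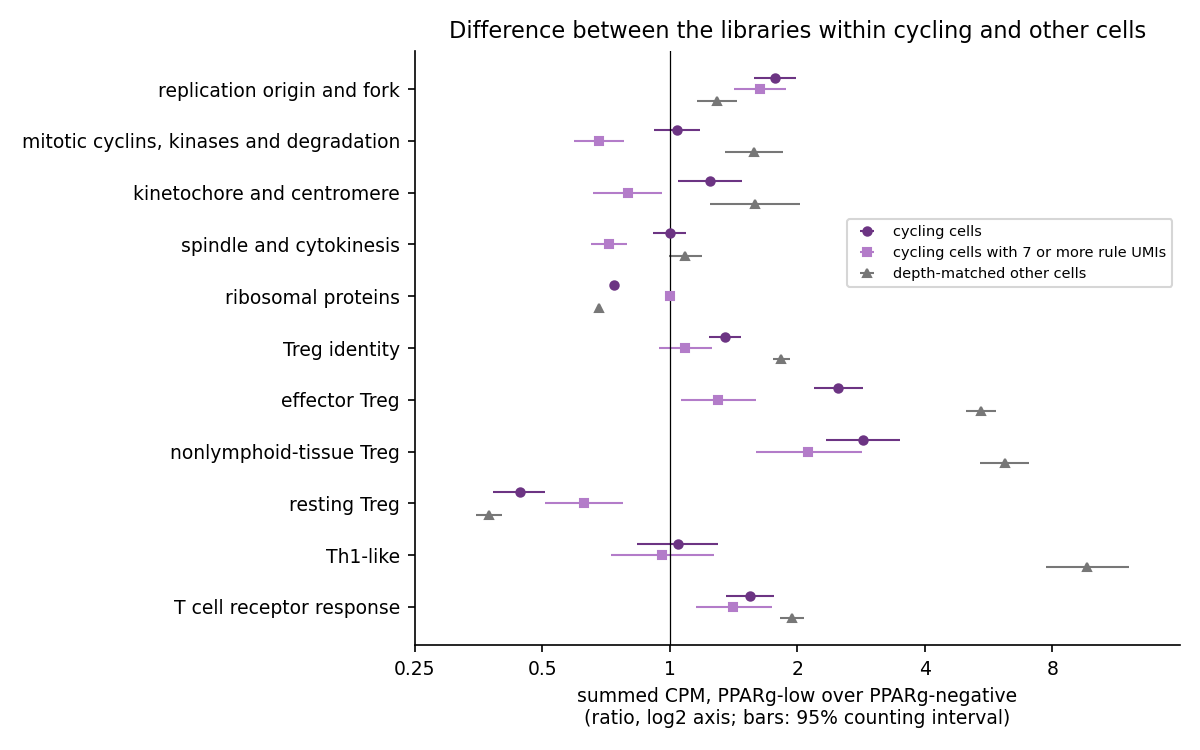
Ratio of summed CPM in PPARg-low over PPARg-negative cells (horizontal axis, log2) for 11 gene lists (vertical axis), with 95% counting intervals, for all cycling cells, cycling cells with 7 or more rule UMIs and depth-matched other cells. The effector and nonlymphoid-tissue lists lie nearer to 1 in cycling than in depth-matched other cells. Other cells matched on ribosomal share too are not shown, and for these lists their ratios lie nearer to 1 than those of the depth-matched cells.

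Transcripts of T cell and Treg genes were found in the cycling cells. No cycling cell had 0 UMIs of the 14 Treg identity genes, and none of the 380 matched cells did. PPARg-low cycling cells had 9 to 101 such UMIs and PPARg-negative cycling cells 2 to 65. The 14 genes include Cd3e and Cd4, which other T cells express, so this count does not tell Tregs from other T cells. The T cell receptor subunit gene Cd3e was found in 33 of 38 PPARg-low and 35 of 38 PPARg-negative cycling cells, and Ikzf2, the Treg factor Helios, in 38 of 38 PPARg-low and 29 of 38 PPARg-negative cycling cells. Foxp3 itself was sparse, with UMIs in 4 PPARg-low cycling cells against 10 of 190 matched cells and in 1 PPARg-negative cycling cell against 16 of 190, so the label Foxp3 positive rests on the sort. Pparg had 1 UMI in PPARg-low and 0 in PPARg-negative cycling cells. Of 14 identity genes measured against matched cells, 1 was higher (Ctla4) and 1 lower, Gpr83, which encodes an orphan receptor, at 0.256 (0.115 to 0.50), and the interleukin 2 receptor gene Il2ra lay at 1.03 (0.749 to 1.39). In cells with 7 or more rule UMIs 4 of 12 were lower, Gpr83 with 0 UMIs, Izumo1r, the folate receptor 4 gene, at 0.365 (0.286 to 0.460), and the costimulatory receptor genes Tnfrsf4 at 0.551 (0.456 to 0.661) and Tnfrsf18 at 0.614 (0.487 to 0.767). Ctla4 had no detectable excess in these cells, at 1.16 (0.881 to 1.505), and lay at 2.18 (1.66 to 2.85) in those with 2 to 4. Of 13 B cell markers, 3 had UMIs in cycling cells (Cd74, Cd79b and Fcmr), the summed level was 466 CPM in PPARg-low cycling cells against 502 in matched cells and 256 CPM in PPARg-negative cycling cells against 372, and Cd79a and Ms4a1 were at 0 in cycling cells. Myeloid markers summed to 247 CPM in PPARg-low cycling cells against 251 and to 202 CPM in PPARg-negative cycling cells against 139.6, nearly all from Cst3, with Lyz2 and Csf1r at 0. Cycling cells held 14 UMIs of CD8 T and NK markers, 10 of conventional CD4 T cell markers, 2 of plasma cell markers (both Irf4) and 0 of neutrophil, erythroid and platelet markers.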

How the data were processed

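Droplet-based single-cell RNA sequencing (Chromium 3′ chemistry, version 2) was run on 2 libraries of sorted Tregs. The authors deposited raw UMI counts for each gene in each barcode, made with Cell Ranger 2.1.0 on mm10, per the submitters' processing notes; the gene annotation was not given in the sources used here. Members and gene lists were chosen with earlier results of these data known.

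Barcodes above 10% mitochondrial UMIs were dropped. Doublets were marked with Scrublet (scanpy 1.11.5) and kept. Each cycling cell, deepest first, was paired with the 5 unused other kept cells of its library nearest in log2 UMIs. Counts were summed over cells and given as CPM; ratios carry exact conditional binomial 95% intervals and levels exact Poisson intervals (scipy 1.17.1). These cover counting error, and UMIs held by few cells vary more. A 0 was set to a floor of 3 counts summed over the cells of the group. The interval was tested on simulated data. Of 32 gene lists, each was summed whole. Named genes were the 10 highest and 10 lowest by the interval bound nearest to 1 in both libraries, up to 5 per list by the same ranking, the 8 highest and 8 lowest between libraries, the rule genes and 13 fixed genes; those listed beyond this were chosen after their values were seen, and some genes are not reported here. Gene coordinates came from GENCODE M21 and promoters from RefSeq on GRCm38.p6. Alternatives changed the rule, filters, matching, scaling and depth; 5 were added after the data were seen.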

Additional observations from a re-analysis of the deposited data

Results flagged for a closer look

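In 4 gene lists the cycling cells lay below matched other cells in the PPARg-low library and above them in the PPARg-negative library, with intervals on opposite sides of 1. Effector Treg genes had a ratio of 0.799 (0.739 to 0.862) in the PPARg-low and 1.74 (1.51 to 1.99) in the PPARg-negative library. Treg identity genes lay at 0.807 (0.758 to 0.859) in the PPARg-low and 1.10 (1.02 to 1.18) in the PPARg-negative library. T cell receptor response genes lay at 0.893 (0.816 to 0.976) in the PPARg-low and 1.13 (1.0 to 1.26) in the PPARg-negative library. Th1-like genes, whose PPARg-negative UMIs were mostly those of Gzmb, lay at 0.811 (0.686 to 0.955) in the PPARg-low and 7.50 (5.74 to 9.85) in the PPARg-negative library. In PPARg-low cycling cells 97 of the UMIs of this list were of Ccl5, most of them in a single cell. Cxcr3 lay at 2.18 (1.37 to 3.40) and Nkg7 at 0.367 (0.209 to 0.605) in that library. A large part of the PPARg-negative Gzmb UMIs also lay in a single cell. The difference between the libraries was not tested, since each group is 1 library.

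After matching on ribosomal share as well as UMIs, the PPARg-low ratios were 0.591 (0.548 to 0.637) for effector, 0.638 (0.599 to 0.678) for identity, 0.835 (0.764 to 0.913) for T cell receptor response and 0.570 (0.484 to 0.669) for Th1-like genes. The PPARg-negative ratios were 0.908 (0.799 to 1.03) for effector, 0.978 (0.906 to 1.06) for identity, 0.936 (0.833 to 1.05) for T cell receptor response and 2.1 (1.72 to 2.56) for Th1-like genes. Of these 4 lists, only the Th1-like one then had intervals on opposite sides of 1.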

How the results depend on the processing

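With 1 library per group no library could be left out. No paired analysis was possible because each group is 1 library. Of 618 values of the main comparisons under the alternatives, 516 kept their direction and their side of the threshold (or stayed within 1.5 times, for counts), 64 counts or percents moved, 19 passed a threshold they had missed, 17 no longer passed one and 2 reversed; of 1366 single-gene values 1188 kept both, 43 passed a threshold they had missed, 126 no longer passed one and 9 reversed. The causes were not tested. Replication, mitotic and kinetochore lists were higher in cycling cells under every alternative run for them. Percents of cycling cells, PPARg-low before PPARg-negative, were 15.4% and 7.75% with 1 or more rule UMIs, 1.48% and 0.570% with 3 or more, 1.11% and 0.418% with 7 or more, 1.52% and 0.543% after thinning to 750 UMIs and 1.48% and 0.760% with the 4 genes alone. The PPARg-negative percent was 0.965% after thinning to 1500 UMIs and 2.25% among ribosome-poor cells, where the ratio of percents was 1.02; it was 1.59 without cells marked by Scrublet. With 2 to 4 rule UMIs, nucleotide synthesis lay at 1.01, DNA methylation at 1.02, DNA repair at 1.09, histones at 1.03, chromatin condensation at 1.30 and the spindle at 1.29, Tubb4b (0.915), Hsp90b1 (0.954) and Hsp90aa1 (0.933) reversed, replication between PPARg-low and PPARg-negative cells reversed to 0.850, and Treg identity between them was 1.84. With 3 or more, the mitotic ratio between them reversed to 0.666 and B cell markers lay at 0.565. With 7 or more, glycolysis lay at 1.5, B cell markers at 0.538, ribosomal proteins at 0.653 and effector genes between libraries at 1.30. After matching on ribosomal share, histones lay at 1.49, suppressive mediators at 1.48 and B cell markers at 0.608, and Klrg1 (0.929) and Icos (0.923) reversed. Among ribosome-poor cells, histones lay at 1.40, effector genes at 0.619, suppressive mediators at 1.42 and B cell markers at 0.605, Treg identity between libraries at 1.69, and Klrg1 (0.938) and Icos (0.853) reversed. Among ribosome-rich cells, B cell markers lay at 0.664 and Ctla4 reversed to 0.811. Without depth matching, CDK inhibitors lay at 0.646, glycolysis at 1.60, resting genes at 0.640 and Th1-like genes at 2.08. Without cells over 3 times the median UMIs, histones lay at 1.10, nonlymphoid-tissue genes at 1.59, Th1-like genes at 2.38, myeloid markers at 1.62 and Treg identity between libraries at 1.92, and Myc reversed to 1.02. Thinned to 750 UMIs, DNA methylation lay at 1.49, histones at 1.25 and Treg identity between libraries at 1.71. Relative to the median gene, histones lay at 1.46. Genes higher and lower in pooled cycling cells numbered 147 and 66 with 2 to 4 rule UMIs, 283 and 92 with a minimum of 100 UMIs per gene and 131 and 53 when thinned; the higher were 247 among ribosome-rich and 220 among ribosome-poor cells and 360 after matching on ribosomal share, and the lower 365 without depth matching and 272 relative to the median gene. In the PPARg-low library they numbered 67 and 33 with 2 to 4 rule UMIs, 155 and 102 among ribosome-rich and 138 and 105 among ribosome-poor cells, 48 and 50 thinned and 135 and 75 at 100 UMIs; the higher were 187 at a mitochondrial limit of 5%, and the lower 382 without depth matching. In the PPARg-negative library they numbered 91 and 38 with 2 to 4 rule UMIs, 133 and 44 among ribosome-rich cells, 234 and 50 without the deepest cells, 57 and 31 thinned and 141 and 46 at 100 UMIs; the higher were 80 among ribosome-poor cells, 188 after matching on ribosomal share and 567 at 10 UMIs, and the lower 152 with 3 or more and 154 with 7 or more rule UMIs, 144 without depth matching and 136 relative to the median gene. Between PPARg-low and PPARg-negative cycling cells they numbered 104 and 112 without the deepest cells, 278 and 96 at 10 UMIs and 49 and 24 at 100 UMIs; the higher were 54 with 3 or more, 41 with 7 or more and 99 with 2 to 4 rule UMIs, 41 among ribosome-poor cells and 23 thinned, and the lower 98 relative to the median gene. Depth limits single genes: most genes had too few UMIs in 38 cells for a ratio.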

Other observations

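Barcodes left out for over 10% mitochondrial UMIs also held cells that met the rule. In the PPARg-low library 13 of 373 such barcodes had 2 or more rule UMIs (3.49%, 1.87 to 5.89%), and 3 had 7 or more. In the PPARg-negative library 6 of 269 had 2 or more (2.23%, 0.823 to 4.79%), and 2 had 7 or more. The mitotic level of a single cell was highest, at 153 mitotic and kinetochore UMIs per 10000, in a PPARg-negative cell with 2 rule UMIs. That level rests on 14 of the 913 UMIs of the cell; the next, 147, rests on 65 of 4413 UMIs in a PPARg-low cell.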
